A study of Mus musculus with 8 samples.

Results

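Expression of 10 genes of Hedgehog reception and response was read from arrays of sorted mouse limb bud cells. These were Ptch1, Gas1, Cdon, Boc, Smo, Sufu, Gli1, Gli2, Gli3 and Hhat, and every probe set whose only platform symbol was one of these names was taken, which gave 25 of the 45037 probe sets that are not controls and 10 of the 18193 genes they name. The cells came from limb buds of E10.5 embryos heterozygous for the Shhgfpcre allele, an insertion of GFP, a fluorescent reporter, fused to Cre recombinase at the Shh gene. Sorting gave a GFP-positive fraction, called ZPA after the zone of polarizing activity, and a GFP-negative fraction, called non-ZPA. Both groups carry the allele, and limbs without it were not analysed here. GFP-positive cells are those in which the Shh locus drove the reporter, and the GFP-negative cells hold every other cell of the limb, ectoderm, blood and muscle precursors included.

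There were 4 samples of each group. The columns of ZPA replicates 1 and 2 differed by at most 0.5 intensity units and were counted as 1 array, so that the comparison rests on 3 ZPA arrays (named 1+2, 3 and 4) and 4 non-ZPA arrays. The values are the authors' linear signal intensity, 1 per probe set and array. Fold changes and tests are on log2(intensity + 16), which understates the change of low probe sets, and adjusted p-values are from limma with Benjamini-Hochberg adjustment over all 27816 probe sets tested. Whether samples of a group were sorted separately, or from different litters, is not given in the labels, so that the spread behind each p-value may be technical. The number of arrays limits the precision.

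In the Hedgehog pathway the ligand, made active by the acyltransferase Hhat, binds Ptch1 together with the co-receptors Gas1, Cdon and Boc. Ligand binding stops Ptch1 from holding back Smo, which then acts against Sufu, so that the Gli factors leave the cilium as activators rather than repressors. Ptch1 and Gli1 are transcribed in response to the signal, Gli2 is the main activator, and Gli3 in the limb acts largely as a repressor that Shh limits on the posterior side. In the limb bud the ligand comes from the ZPA itself, and cells in and next to it receive it.

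For 3 genes the sequence before an annotated start is shown. These genes stand for the patterns below, a fall in ZPA cells (Gas1), a classical response gene (Ptch1) and a Gli factor whose difference varied between scan days (Gli2). Each sequence is the 250 bases before that start, from RefSeq with build GRCm38.p6, printed 5′ to 3′ on the strand of the gene. The windows of Ptch1 and Gli2 lie inside the listed spans of these genes (63508328 to 63573460 and 118834061 to 119054405). The starts used for them are therefore not the outermost ones, while the Gas1 window lies outside its gene. Capitals mark CCACCC, the core of the Gli binding motif GACCACCCA, on either strand.
Gas1, chr13:60177536-60177785, minus strand: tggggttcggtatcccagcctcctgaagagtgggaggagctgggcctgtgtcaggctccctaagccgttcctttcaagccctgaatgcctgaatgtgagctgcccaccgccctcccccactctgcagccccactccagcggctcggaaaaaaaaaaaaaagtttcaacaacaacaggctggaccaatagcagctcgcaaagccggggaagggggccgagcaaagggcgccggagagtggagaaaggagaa
Ptch1, chr13:63565736-63565985, minus strand: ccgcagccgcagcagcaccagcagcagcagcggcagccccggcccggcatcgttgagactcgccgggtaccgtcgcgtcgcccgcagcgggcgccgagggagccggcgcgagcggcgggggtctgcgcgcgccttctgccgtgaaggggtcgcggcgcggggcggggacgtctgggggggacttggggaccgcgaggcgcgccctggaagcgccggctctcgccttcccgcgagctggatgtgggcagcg
Gli2, chr1:119053620-119053869, minus strand: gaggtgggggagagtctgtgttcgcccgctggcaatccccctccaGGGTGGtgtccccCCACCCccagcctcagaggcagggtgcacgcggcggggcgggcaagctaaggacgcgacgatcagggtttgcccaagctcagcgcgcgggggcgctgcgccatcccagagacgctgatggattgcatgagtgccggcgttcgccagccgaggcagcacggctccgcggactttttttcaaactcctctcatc
Windows of 8 of the 10 genes matched the table. The motif GACCACCCA was in 0 of the 8 and in 0.225% of all 32851 windows of this length. Its core CCACCC, which lies inside it, was in 3 of the 8 (Smo, Gli2 and Gli3) and in 28.1% of all windows. In Gli2 the core occurred at 205 and at 192 bases before the start, on opposite strands. The Ptch1 window held 41 CpG dinucleotides with a GC content of 78.4%, that of Gas1 held 10 with 58.8%, and the median of all windows was 6 with 52.4%. A match is a description of the letters and not a site, and its absence says nothing about the factor.

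Some facts of the arrays bear on all values below. Shh, the gene of the sort, was at 6226, 12149 and 11191 on the ZPA arrays, against 203 to 1085 on the non-ZPA arrays. The summed spike-in signal was 8.33, 1.47 and 5.76 times the non-ZPA mean on ZPA arrays 1+2, 3 and 4, while single non-ZPA arrays ranged over 0.716 to 1.20 of it. ZPA array 4 had a 3 prime to 5 prime Actb ratio of 21.6, whereas the remaining arrays had 2.04 to 5.37. The median intensity was 133, 75.2 and 121 on ZPA arrays 1+2, 3 and 4, against 80.4 to 94.6 on the non-ZPA arrays. The part of these unequal medians in the values of dim probe sets was not tested. The scan records fall on 2 days. Day 1 held ZPA array 1+2 (from the record of replicate 1, since that of replicate 2 is blank) with non-ZPA replicates 1 and 2, and day 2 held ZPA arrays 3 and 4 with non-ZPA replicates 3 and 4. Tbx4, a limb mesenchyme marker named after its values were seen, differed between the days in both groups. It was at 1021 on ZPA array 1+2 and at 1259 and 1942 on non-ZPA replicates 1 and 2. The day 2 arrays had 94.3 and 9.6 in ZPA cells and 111.7 and 212.5 in non-ZPA cells. The part of unlike cells on the 2 days in the differences between days below was not tested.

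Across the 25 probe sets, 20 passed the filter on low values and were tested, and 2 of these passed the test, both of Gas1 and both lower in ZPA cells. The background share past the test was 1.74% of the 27816 probe sets, with 1.36% lower and 0.381% higher. None of the 20 passed as higher, and 14 had an unadjusted limma p under 0.05 (5 higher and 9 lower), against 18.0% of all tested probe sets. Of all 25, the ZPA and non-ZPA arrays did not overlap for 12, with 4 higher and 8 lower in ZPA cells, against 13.3% of all 45037 probe sets (7.08% higher and 6.25% lower). Among the 20 tested, 4 did not overlap on the higher side and 7 on the lower side, against 8.17% and 8.87% of all tested probe sets. A log2 fold change above 0 was found for 10 of the 20 and for 51.4% of all tested. Part of these counts on the higher side is fixed by the filter. Of the 20, 4 (1 each of Ptch1, Gas1, Gli3 and Hhat) lay above the filter level on no more than 2 non-ZPA arrays and passed through the ZPA arrays. All 4 are among the 5 higher by unadjusted p, and those of Ptch1, Gas1 and Hhat are among the 4 tested that did not overlap on the higher side. Among the 3799 tested probe sets of that kind on the whole array, 87.8% had a log2 fold change above 0. Groups did not overlap on the higher side for 13.3% of them. Over all members tested the median was -0.21 on the log2 scale, against 0.03 over all tested probe sets.

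**Figure D1:**
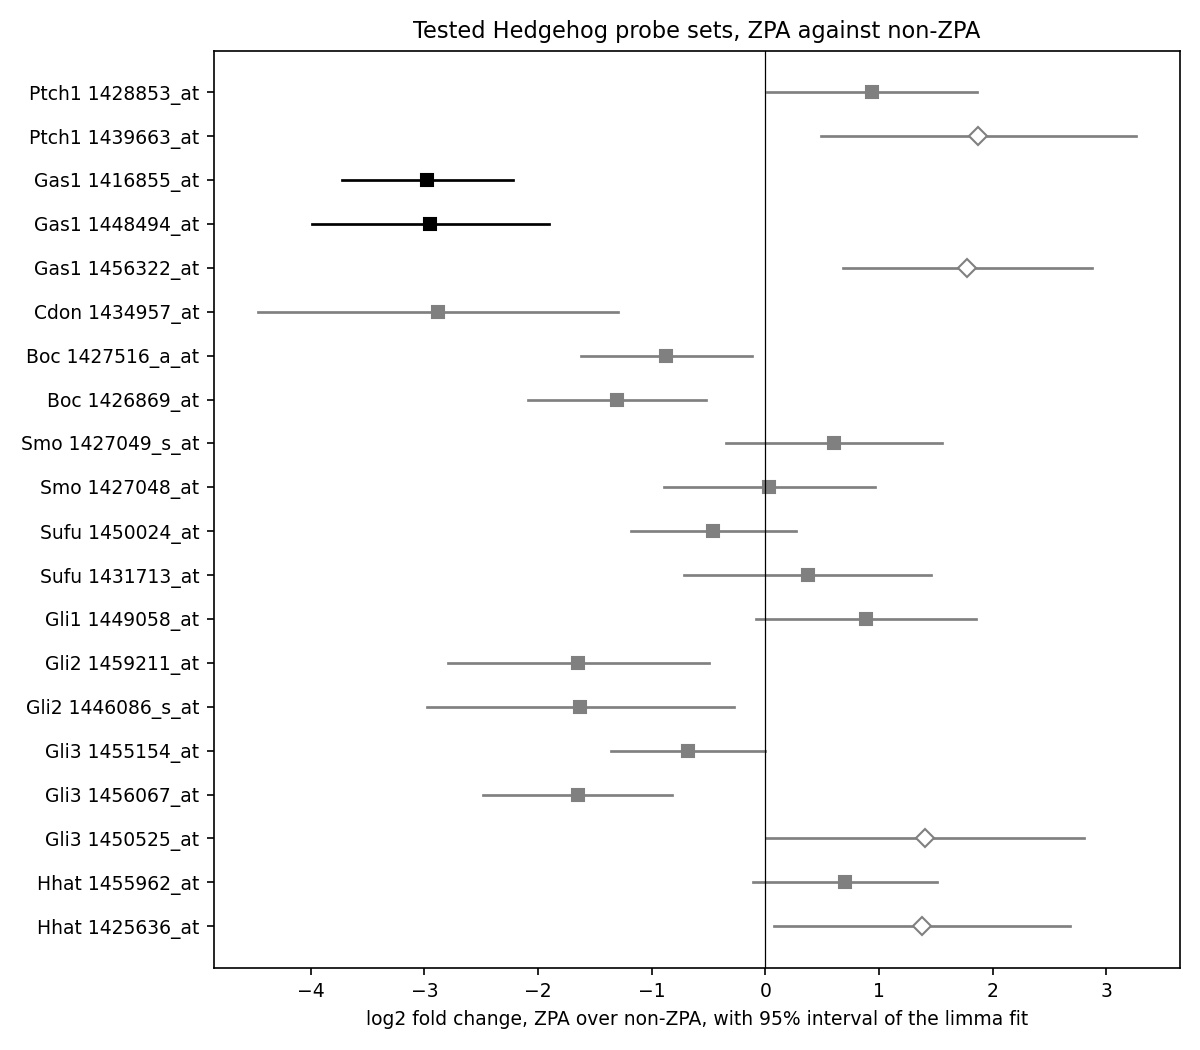
Log2 fold change (ZPA over non-ZPA, horizontal axis) of the 20 tested probe sets with the 95% interval of the limma fit; black marks an adjusted p under 0.05, grey the rest, and open diamonds the 4 probe sets that passed the filter through the ZPA arrays. The 2 Gas1 probe sets at -2.97 and -2.95 are black, and the other probe sets left of 0 are those of Cdon, Boc and Gli2, 2 of the 3 of Gli3 and 1 of the 2 of Sufu.

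Gas1, a membrane-anchored co-receptor that helps cells respond to low ligand, had the clearest difference. Probe set 1416855_at was at 1370, 1557 and 635 on ZPA arrays 1+2, 3 and 4, against 7064, 10678, 9556 and 8354 on the non-ZPA arrays. All ZPA values lay below every non-ZPA value, on both scan days. This was a log2 fold change of -2.97 ± 0.35 (SE), a 7.85-fold fall in ZPA cells (adjusted p = 0.00222).

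The other abundant Gas1 probe set, 1448494_at, gave nearly the same size. It was at 988, 223 and 291 on the ZPA arrays, against 2314, 5773, 3042 and 2640 on the non-ZPA arrays, again with no overlap. Its log2 fold change was -2.95 ± 0.48 (adjusted p = 0.00980). Gas1 thus fell on both probe sets with a signal above the filter level on all 7 arrays. Within scan day 1 the values were -2.65 and -1.87, and within day 2 they were -3.14 and -3.39. In a bulk sample fewer cells with the gene and less RNA per cell cannot be told apart.

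The third Gas1 probe set ran the other way. Probe set 1456322_at was at 235, 209 and 162 on the ZPA arrays, against 23.3, 47.8, 36.4 and 104 on the non-ZPA arrays. It lay above the filter level on 1 of the non-ZPA arrays, entered the test through the ZPA arrays, and had a log2 fold change of 1.78 ± 0.51 that did not pass (adjusted p = 0.0921). The 3 probe sets of Gas1 therefore disagree in sign, and the call rests on the 2 brighter ones. Gas1 lies on chromosome 13 between 60174405 and 60177535 in GRCm38.p6.

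Calls of Gas1 were steady when single arrays were left out. Over the 7 fits without 1 array the adjusted limma p ran from 0.000663 to 0.0152 for 1416855_at and from 0.000558 to 0.0423 for 1448494_at. Without replicate number 3 in both groups, that is without ZPA array 3 and non-ZPA replicate 3, neither passed (log2 fold changes -3.18 and -2.57, adjusted p = 0.0967 and 0.146), in a fit where 0 of 27816 probe sets passed and 4782 had an unadjusted p under 0.05. Without replicate number 4 in both groups the second did not pass (-2.82, adjusted p = 0.0817).

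Cdon, an immunoglobulin-family co-receptor that is also known from muscle precursors, split by scan day. Probe set 1434957_at was at 3089, 288 and 242 on ZPA arrays 1+2, 3 and 4, against 1824, 5351, 6639 and 6768 on the non-ZPA arrays. ZPA array 1+2 lay between both non-ZPA arrays of its own day, whereas ZPA arrays 3 and 4 lay far below all 4 non-ZPA arrays. Over all arrays the log2 fold change was -2.88 ± 0.74 and did not pass (adjusted p = 0.0672).

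Within day 1 the Cdon difference was -0.02 on the log2 scale, and within day 2 it was -4.58. The difference between both days, tested as an interaction of group and day, was -4.57 ± 0.70 (limma adjusted p = 0.0277). This interaction passed for 0.999% of all tested probe sets, and its day 1 effect rests on 1 ZPA array. Without ZPA array 1+2 Cdon passed as lower (log2 fold change -4.04, adjusted p = 0.000834), while 9.40% of all tested probe sets passed in that fit. Over 27 alternatives its adjusted p ran from 1.80e-07 to 0.982 and passed in 8. Of these 8, 4 left ZPA array 1+2 out and 4 kept it (median centring at -3.13 with adjusted p = 0.0325, array weights at -3.47 with 0.00317, and a replicate block with the shared array as either number). The low Cdon values were those of ZPA arrays 3 and 4.

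Markers of muscle precursors, read beside Cdon, had 3 of 8 tested genes lower in ZPA cells (Met, Pax3 and Myf5) and 0 higher. Of all tested genes, each by its probe set with the highest mean, 1.82% were called lower and 0.345% higher. A negative log2 fold change was found for 7 of the 8 markers. Within the ZPA arrays Cdon was highest on array 1+2, and the markers differed. Lbx1, Myod1, Myog and Six4, none of them called, were also highest there, while Myf5 and Msc were highest on array 4. Met, a receptor kinase of migrating precursors, was at 3.9, 49.3 and 83.4 on ZPA arrays 1+2, 3 and 4, against 305 to 1681 on the non-ZPA arrays. Pax3, a transcription factor of these cells, was at 12.6, 44.0 and 104.5 on the ZPA arrays, against 202 to 662 on the non-ZPA arrays. Both were lowest on array 1+2. The summed intensity of the 9 markers on the array was 4435 on ZPA array 1+2 and 1838 and 1649 on arrays 3 and 4, against 3137 to 6422 on the non-ZPA arrays, and Six4, which was not called (log2 fold change 0.04), supplied 3801, 1565 and 944 of the ZPA sums. No marker was at 0 on all ZPA arrays. The part of muscle precursors in the Cdon values was not tested. The other Cdon probe set, 1421452_at, was below the filter level on all 7 arrays (8.2 to 15.0 on ZPA arrays, against 24.7 to 45.3 on non-ZPA arrays) and was not tested.

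Boc, the co-receptor related to Cdon, was lower in every ZPA array without passing the test. Probe set 1426869_at was at 114, 125 and 130 on the ZPA arrays, against 255, 443, 365 and 279 on the non-ZPA arrays. Its log2 fold change was -1.31 ± 0.36 (adjusted p = 0.0838), and it was similar within day 1 (-1.44) and day 2 (-1.23).

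Another Boc probe set, 1427516_a_at, was at 348, 262 and 178 on the ZPA arrays, against 470, 469, 569 and 415 on the non-ZPA arrays. These groups did not overlap either, and the log2 fold change was -0.87 ± 0.35 (adjusted p = 0.208). Probe set 1427517_at of Boc, made from the same source sequence as 1427516_a_at, was not tested, with values up to 108. Counting the Boc gene by its tested probe sets, both were lower in ZPA cells by values, and neither was called.

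**Figure D2:**
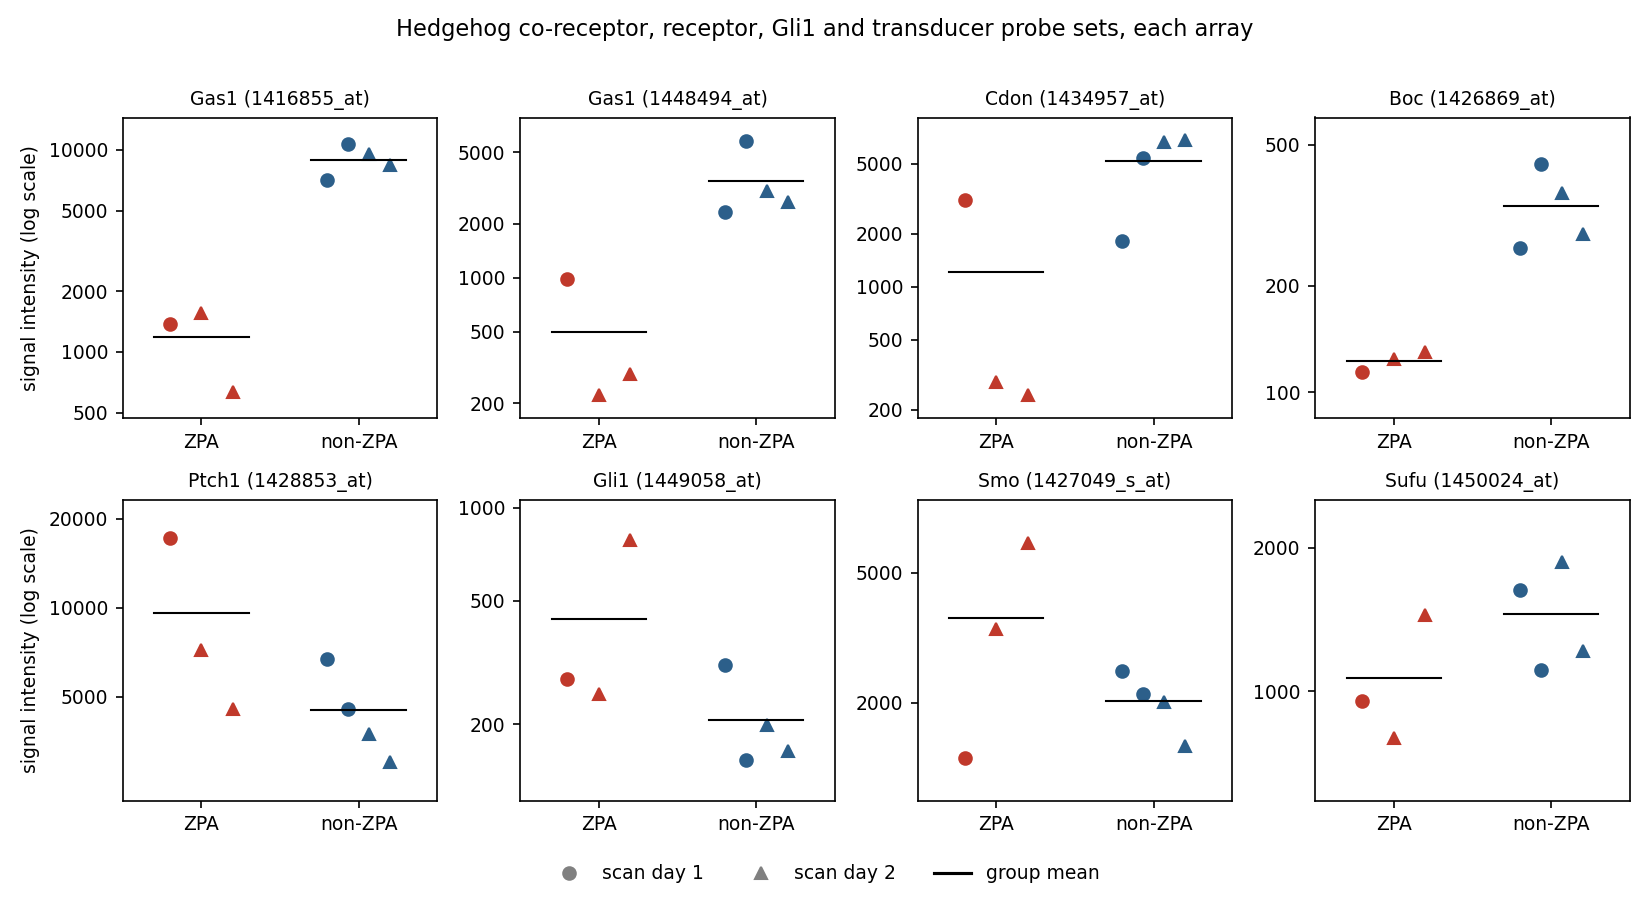
Signal intensity (vertical axis, log scale, different range in each panel) of 8 probe sets on the 3 ZPA arrays (red, left) and 4 non-ZPA arrays (blue, right); circles are scan day 1, triangles day 2, and bars the group means. The ZPA points of Gas1 and Boc lie below all non-ZPA points, Cdon has 1 ZPA array at 3089 among the non-ZPA arrays, and Ptch1, Gli1, Smo and Sufu overlap between the groups.

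Ptch1, the receptor and a standard readout of Hedgehog response, was higher in ZPA cells by value but did not pass the test. Probe set 1428853_at was at 17177, 7179 and 4541 on ZPA arrays 1+2, 3 and 4, against 6693, 4524, 3746 and 2999 on the non-ZPA arrays. The groups overlapped, because ZPA array 4 lay below non-ZPA replicate 1. Within each day, however, every ZPA array lay above both non-ZPA arrays, which themselves were higher on day 1.

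This probe set had a log2 fold change of 0.94 ± 0.43, with a 95% interval from 0.01 to 1.86 (adjusted p = 0.273). It was 1.64 within day 1 and 0.77 within day 2, and the test of the difference between days did not pass (adjusted p = 0.393). With the scan day as a block it was 1.12 ± 0.32 (adjusted p = 0.0812). Without ZPA array 1+2 the log2 fold change was 0.41.

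A second, dim Ptch1 probe set, 1439663_at, was at 221, 82.3 and 143 on the ZPA arrays, against 80.6, 29.3, 7.4 and 15.1 on the non-ZPA arrays. These groups did not overlap, the log2 fold change was 1.87 ± 0.64, and it did not pass (adjusted p = 0.149). It lay above the filter level on 1 non-ZPA array only. Probe set 1450824_at was below the filter level on all arrays (8.6 to 25.8 on ZPA arrays, against 3.1 to 11.8 on non-ZPA arrays). The direction of Ptch1 thus rests on 1428853_at, and no Ptch1 probe set was called.

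Gli1, a Gli factor whose transcription needs the signal, was measured by 1 probe set, 1449058_at. It was at 279, 251 and 784 on ZPA arrays 1+2, 3 and 4, against 311, 153, 199 and 164 on the non-ZPA arrays. ZPA array 4 was the highest of all, and non-ZPA replicate 1 lay above the other ZPA arrays. Gli1 had a log2 fold change of 0.89 ± 0.45, with a 95% interval from -0.08 to 1.85 (adjusted p = 0.324). Within day 1 it was 0.33 and within day 2 it was 1.23. Leaving out ZPA array 4, the array with the high Actb ratio, gave the lowest of the 7 fits without 1 array, a log2 fold change of 0.38.

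Gli2, the main activator, was lower on every ZPA array, by sizes that differed between the days. Probe set 1459211_at was at 261, 1994 and 1345 on ZPA arrays 1+2, 3 and 4, against 2821, 2920, 3144 and 2500 on the non-ZPA arrays. The non-ZPA arrays were close together, and the lowest ZPA value was on array 1+2. Its log2 fold change was -1.65 ± 0.53 and did not pass (adjusted p = 0.128).

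Probe set 1446086_s_at, made from the same source sequence as the first Gli2 probe set and so not independent of it, was at 34.1, 470 and 376 on the ZPA arrays, against 712, 558, 643 and 652 on the non-ZPA arrays. The value of 34.1 lay below the filter level of its array. The log2 difference was -1.63 ± 0.63 (adjusted p = 0.191).

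For Gli2 the within-day log2 differences were -3.38 and -3.69 on day 1, against -0.77 and -0.60 on day 2. The interaction of group and day was 2.61 ± 0.50 for 1459211_at (limma adjusted p = 0.0455) and 3.09 ± 0.58 for 1446086_s_at (adjusted p = 0.0428). ZPA array 1+2 is thus the array in which Gli2 was lowest and Cdon was highest among the ZPA arrays. Both effects on day 1 rest on that array alone.

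**Figure D3:**
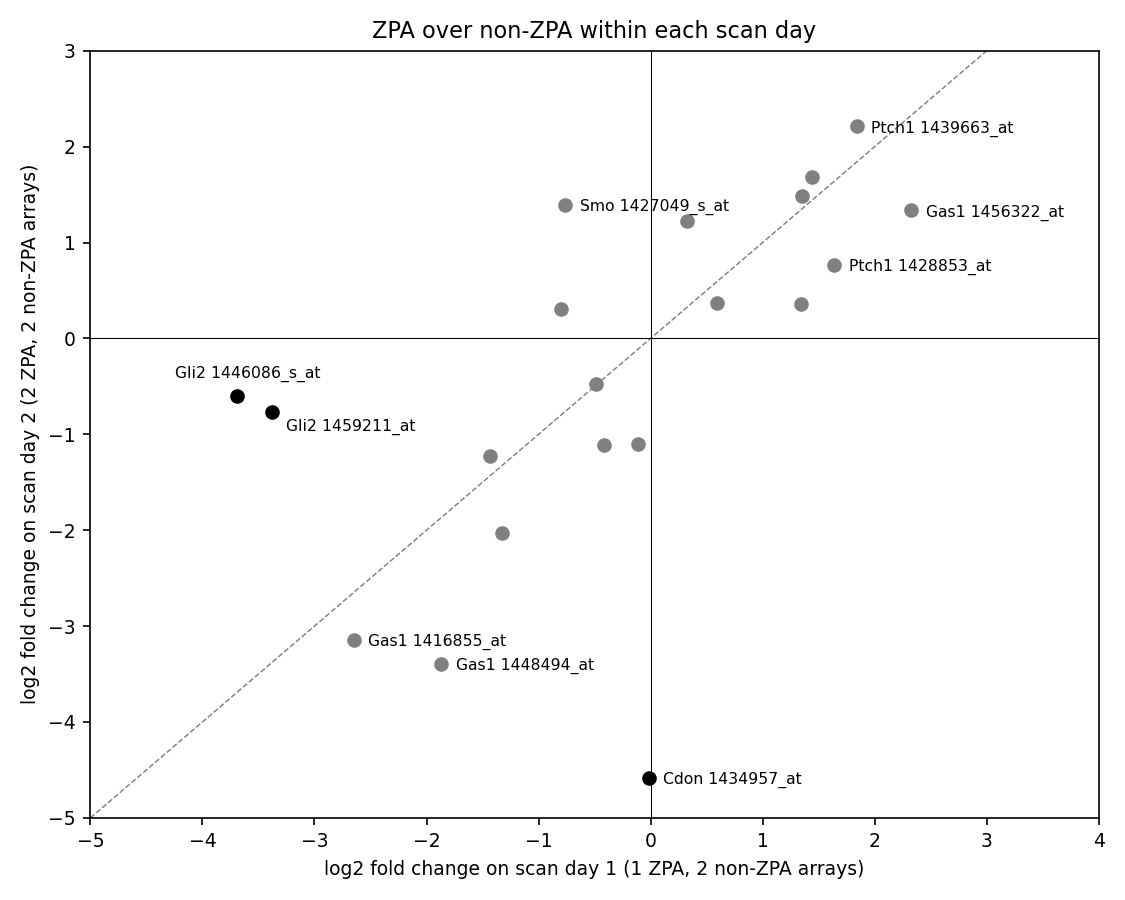
Log2 fold change (ZPA over non-ZPA) of the 20 tested probe sets within scan day 1 (horizontal axis, 1 ZPA and 2 non-ZPA arrays) and within scan day 2 (vertical axis, 2 and 2 arrays); the dashed line marks equal values, and black points are the 3 probe sets whose days differed by the interaction test. Cdon lies at -0.02 and -4.58, both Gli2 probe sets lie far left at -3.38 and -3.69, and the 2 brighter Gas1 probe sets are low on both axes.

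Gli3, whose repressor form shapes the anterior limb, had 3 tested probe sets of differing size and sign. Probe set 1456067_at was at 1052, 1792 and 788 on the ZPA arrays, against 2590, 2743, 6080 and 3963 on the non-ZPA arrays. No ZPA value reached the non-ZPA range. The log2 fold change was -1.65 ± 0.39, just outside the threshold (adjusted p = 0.0501).

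This Gli3 value sat at the threshold under other settings as well, passing in 13 of 26 of them, with adjusted p from 0.00625 to 0.227. With the scan day as a block it passed at -1.75 ± 0.35 (adjusted p = 0.0219), where 2.99% of all tested probe sets passed. The difference was -1.33 within day 1 and -2.03 within day 2.

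The other abundant Gli3 probe set, 1455154_at, was at 3013, 2578 and 1918 on the ZPA arrays, against 3604, 2948, 5352 and 4308 on the non-ZPA arrays. ZPA array 1+2 lay above non-ZPA replicate 2, so that the groups overlapped. Its log2 fold change was -0.68 ± 0.31 (adjusted p = 0.276). The dim probe set 1450525_at, above the filter level on 2 non-ZPA arrays, was at 202, 63.4 and 144 on the ZPA arrays, against 77.6, 52.7, 44.7 and 4.4 on the non-ZPA arrays. This was a log2 difference of 1.40 ± 0.65 (adjusted p = 0.276).

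**Figure D4:**
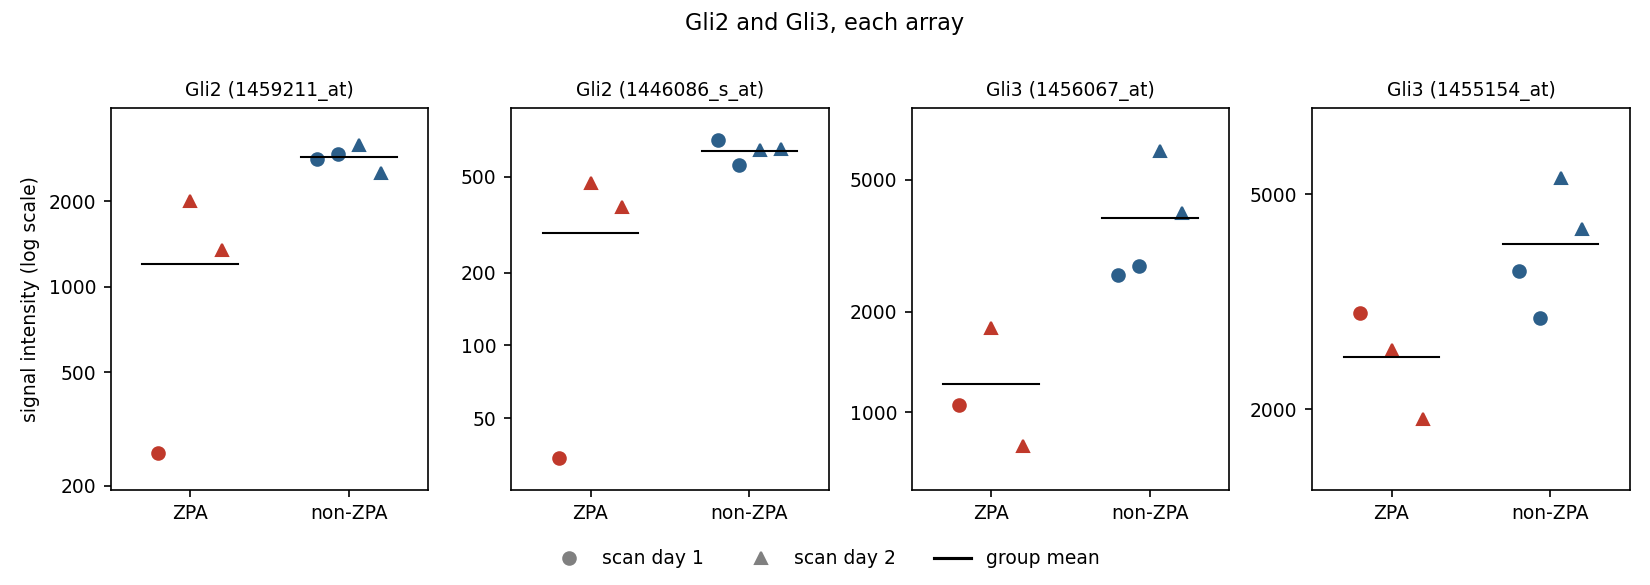
Signal intensity (vertical axis, log scale, different range in each panel) of 2 Gli2 and 2 Gli3 probe sets on the 3 ZPA arrays (red, left) and 4 non-ZPA arrays (blue, right); circles are scan day 1, triangles day 2, and bars the group means. Both Gli2 panels have ZPA array 1+2 lowest, at 261 and 34.1, and in the panel of Gli3 1456067_at all ZPA arrays lie below the non-ZPA arrays.

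Smo, the membrane protein that Ptch1 holds back, showed no called difference. Probe set 1427049_s_at was at 1355, 3356 and 6187 on ZPA arrays 1+2, 3 and 4, against 2507, 2126, 2016 and 1479 on the non-ZPA arrays. The ZPA arrays held both the lowest and the highest value, and the log2 fold change was 0.60 ± 0.44, with a 95% interval from -0.35 to 1.55 (adjusted p = 0.514). It was -0.76 within day 1 and 1.39 within day 2, a difference between days that did not pass (adjusted p = 0.0921). Without ZPA array 1+2 it passed as higher (1.18, adjusted p = 0.0344).

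Probe set 1427048_at of Smo, from the same source sequence, was at 763, 2448 and 2542 on the ZPA arrays, against 1487, 1208, 1625 and 2481 on the non-ZPA arrays. Its log2 fold change was 0.04, with an interval from -0.90 to 0.97. ZPA array 1+2 was again the lowest of all arrays. The third, 1442215_at, was below the filter level on all arrays and was not tested.

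Sufu, the cytoplasmic protein that restrains the Gli factors, also overlapped between the groups. Probe set 1450024_at was at 956, 797 and 1449 on the ZPA arrays, against 1633, 1110, 1866 and 1216 on the non-ZPA arrays. The log2 fold change was -0.46 ± 0.34, with a 95% interval from -1.18 to 0.27 (adjusted p = 0.519). Probe set 1431713_at had 162, 75.6 and 125 on the ZPA arrays, against 145, 70.9, 44.0 and 113 on the non-ZPA arrays (log2 fold change 0.37, adjusted p = 0.751), and 1420848_at was not tested.

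Hhat, the acyltransferase that acts in ligand-making cells, was higher on every ZPA array without passing the test. Probe set 1455962_at was at 527, 321 and 240 on ZPA arrays 1+2, 3 and 4, against 165, 238, 215 and 210 on the non-ZPA arrays. ZPA array 4 lay just above non-ZPA replicate 2, the highest of its group. The log2 fold change was 0.70 ± 0.38, with a 95% interval from -0.11 to 1.51 (adjusted p = 0.350).

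The dim Hhat probe set 1425636_at was at 121, 63.1 and 157 on the ZPA arrays, against 32.0, 43.9, 9.7 and 51.7 on the non-ZPA arrays. It was above the filter level on 0 non-ZPA arrays and entered the test through the ZPA arrays, because both columns of array 1+2 counted towards the filter. With the filter over the 7 distinct arrays it was not tested, and 19 member probe sets remained. The log2 difference was 1.38 ± 0.60 (adjusted p = 0.251).

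The log2 difference between the brightest probe sets of 2 members on the same array was set side by side for 4 pairs, chosen with earlier results of these data known, and is given as a description with no test. Ptch1 minus Gas1 was 2.88 ± 0.72 on the ZPA arrays, against -1.03 ± 0.64 on the non-ZPA arrays (SD, n = 3 and 4), a shift of 3.91. Smo minus Gas1 shifted by 3.58, Gli1 minus Gli2 by 2.53 and Gli1 minus Gli3 by 1.57. The Gas1 and Gli2 probe sets subtracted here had groups that did not overlap on their own, and these shifts hold that difference. With the mean of all tested probe sets of each gene, the shift of Ptch1 minus Gas1 was 2.79, that of Smo minus Gas1 was 1.70 and that of Gli1 minus Gli2 was 2.52. The tested Gli3 probe sets differ in sign, and Gli1 minus Gli3 is not given in this form.

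Around these members, genes that release or bind the ligand included 1 higher and 1 lower in ZPA cells of 7 tested, each gene by its probe set with the highest mean. Background shares of genes were 0.345% higher and 1.82% lower. Besides Shh, whose reporter defined the sort, the glypican Gpc3, a cell-surface proteoglycan known to compete for Hedgehog ligand, fell to 3300 ± 1709 in ZPA cells, against 10050 ± 1095 in non-ZPA cells (SD, n = 3 and 4, log2 fold change -1.72 ± 0.34 SE, adjusted p = 0.0257). Its list had a median of 0.51 on the log2 scale. With the scan day as a block 1 gene of the list was called higher and 2 lower, against 0.737% and 2.26% of all tested probe sets.

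Among 27 tested genes of the cilium and the cytoplasmic machinery, 1 fell and 0 rose, with a list median of -0.07. Gsk3b, a kinase that marks Gli proteins for processing, fell to 1613 ± 387 in ZPA cells, against 7114 ± 1595 in non-ZPA cells on its brightest probe set (SD, log2 fold change -2.13 ± 0.31 SE, adjusted p = 0.00523). Of its 6 tested probe sets 3 had this sign, and 1 passed. The next probe sets by the naming rule were those of the casein kinase gene Csnk1a1 at 0.18 and the protein kinase A gene Prkaca at 0.12 on the log2 scale, neither called.

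Limb genes known to respond to Shh, each by its probe set with the highest mean, had 2 of 17 tested members higher and 0 lower, with a list median of 0.59. Of all their 35 tested probe sets 4 were called higher and 0 lower, against 0.381% and 1.36% of all tested. Besides Hoxd11 and Tbx2, Tbx3 and Mycn each had 1 dimmer probe set called higher. The homeobox gene Hoxd11 rose to 439 ± 84.8 in ZPA cells, against 102 ± 33.8 in non-ZPA cells (SD, log2 fold change 1.98, limma adjusted p = 0.0239). The T-box gene Tbx2 rose to 2304 ± 858 in ZPA cells, against 579 ± 146 in non-ZPA cells (1.93, adjusted p = 0.0203). With the scan day as a block 4 of the 17 members rose. Beyond Hoxd11 and Tbx2 these were Hoxd13 and Bmp2, which are named after their values were seen. The block called 0.737% of all tested probe sets as higher and 2.26% as lower. The summed intensity of this list was 58148 to 93953 on the ZPA arrays, against 33104 to 58203 on the non-ZPA arrays. Much of it came from genes not called without the block. On ZPA arrays 1+2, 3 and 4 Hoxd13 supplied 52623, 11559 and 13891, against 1613 to 15871 on the non-ZPA arrays. Hand2 supplied 9945, 9273 and 24948, against 2587 to 8602.

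Each marker gene was read by its probe set with the highest mean. Of the 8 lists of cell type markers, 3 held called genes (muscle precursors, above, surface ectoderm and erythroid cells), all lower in ZPA cells. The background shares of genes were 1.82% lower and 0.345% higher. Surface ectoderm markers had 2 of 11 tested genes lower (Epcam and Dsp) and 0 higher, with a summed intensity of 1005 to 3025 on the ZPA arrays, against 4258 to 8357 on the non-ZPA arrays. Erythroid markers had 2 of 8 lower (Hba-x and Slc4a1) and 0 higher (summed 18799 to 58916, against 37562 to 54566). A negative log2 fold change was found for 7 of these 8. The brightest probe set of Hbb-y, which was not called (log2 fold change -0.17), supplied 17008, 19226 and 45991 of the sums on ZPA arrays 1+2, 3 and 4. Apical ridge, endothelial, neural and leukocyte markers had 0 called of 5, 6, 6 and 8 tested. With the scan day as a block 1 apical ridge, 2 neural, 3 muscle precursor, 3 surface ectoderm and 4 erythroid markers were called lower. No marker was called higher there, and the block called 2.26% of all tested probe sets as lower. Summed neural markers were 906 to 1359 on the ZPA arrays, against 1827 to 2801 on the non-ZPA arrays. Summed leukocyte markers were 13574 on ZPA array 4 and 839 and 1714 on the other ZPA arrays, against 1067 to 1808 on the non-ZPA arrays. Limb mesenchyme markers summed to 28775 to 51910 on the ZPA arrays, against 21058 to 26521 on the non-ZPA arrays, with 0 of 9 called. Their median was 0.998 on the log2 scale, and 7 of the 9 were above 0. Groups did not overlap for 4, all higher in ZPA cells, against 8.17% of all tested probe sets. Of their 16 tested probe sets, 1 (of Msx1) was called higher, against 0.381% of all tested. No list had a gene at 0 on all ZPA arrays. The part of these cell types in the values of Gas1, Boc, Gli2 and Gli3 was not tested.

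Other genes shared the array pattern of Gas1 closely. Over the 7 arrays, the highest Pearson correlations with Gas1 1416855_at on the log2 scale were those of Abtb2 (r = 0.994), Agpat4 (0.993), Snap91 (0.993), Dcaf12 (0.992) and Capza2 (0.992), and 224 of the 23393 other tested probe sets with 1 symbol exceeded 0.95. With Ptch1 1428853_at they were those of Mycbp2 (r = 0.990), Rbfox3 (0.989), Luc7l3 (0.979), Dbi (0.977) and Rpl22 (0.975), and 32 exceeded 0.95. These are descriptions over few arrays that share their group difference and their scan days.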

How the data were processed

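Expression was measured on Mouse430_2 arrays in 8 samples of sorted limb bud cells. Per the labels, biotinylated target was made by a 2-cycle protocol from 50 ng of total RNA. The deposited table holds the authors' linear signal intensity, with GCOS 1.3 named in the submitters' processing notes, and each array has a trimmed mean of 500 after the lowest and highest 2% are dropped. The summary method and detection calls are not given in the sources used here. The members and lists were chosen with earlier results of these data known.

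ZPA replicates 1 and 2 were averaged into 1 array. A probe set was tested where it exceeded the 40th percentile of its array (50.8 to 91.9) in at least 4 of the 8 columns, 64 control probe sets left out. log2(intensity + 16) was fitted with limma 3.58.1 in R 4.3.3 (trend), with adjusted p under 0.05 as the threshold. Genes named beyond the members are those of fixed lists past the test, or the 2 brightest where fewer than 2 passed, and the 5 most alike to Gas1 and to Ptch1. Any further genes of the lists were named after their values were seen. The fit was tested on simulated data with 200 changed probe sets. It recovered 2.6% of changes of 1 on the log2 scale, 53.4% of changes of 2 and 80.4% of changes of 3. A planned exact permutation test of the differences between members is not used, since the pairs were chosen with results known. Alternatives were the pseudocount, normalization, filter, scan day, replicate number, variance model, array weights and left-out arrays, with a filter over the 7 distinct arrays and the interaction of group and day added after seeing the data.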

Additional observations from a re-analysis of the deposited data

Results flagged for a closer look

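Cdon (1434957_at) had effects of ZPA against non-ZPA that differed between the scan days, with an interaction of -4.57 on the log2 scale (day 2 minus day 1, limma adjusted p = 0.0277). Gli2 differed in the opposite direction, by 2.61 for 1459211_at (adjusted p = 0.0455) and by 3.09 for 1446086_s_at (adjusted p = 0.0428). In all 3 cases the day 1 effect rests on ZPA array 1+2.

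Among the 4 non-ZPA arrays, the dim Smo probe set 1442215_at, which was not tested, had 1 array far from the others, replicate 1 at 28.1 against 4.8 to 5.4, with a gap of 0.962 of the group's range. This was 1 of 25 probe sets examined, and chance flags about 1 in 20.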

How the results depend on the processing

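Of the 20 tested probe sets, 18 kept the sign of their log2 fold change in every alternative, and the other 2 were those of Smo. Gas1 1416855_at passed in 26 of 27 alternatives and 1448494_at in 23 of 26, and neither passed without replicate number 3 in both groups. Without the intensity trend 1448494_at did not pass (adjusted p = 0.0571). The count of 2 called member probe sets became 9 on scan day 1 alone, 4 on day 2 alone, 1 without the trend, 1 with 1 probe set per gene, 5 with ZPA replicates 1 and 2 counted separately, and 0 to 5 when arrays or replicate numbers were left out. Over all probe sets the count of 484 became 833 with the scan day as a block, 6132 on day 1 alone, where 1 ZPA array takes its spread from the non-ZPA group, 122 without the trend, 1310 with array weights, 1338 with both ZPA columns counted, and 123 to 2615 when 1 array was left out. Leaving out a replicate number in both groups gave 0 to 1689, the 0 by limma without number 3, where 4782 had an unadjusted p under 0.05. Left-out arrays also took the shift of Ptch1 minus Gas1 between 3.53 and 4.25 (between 3.77 and 4.23 without 1 non-ZPA array), of Gli1 minus Gli2 between 1.89 and 3.39 (2.40 and 2.74; 2.32 without ZPA array 4) and of Smo minus Gas1 between 2.67 and 4.31 (3.46 and 3.79), given with no test. The means of all tested probe sets gave 2.79, 2.52 and 1.70, and Gli1 minus Gli3 is not given in either form. Median centring moved the median of all tested probe sets from 0.03 to -0.23. In that fit, and not relative to that median, the log2 fold change of Gas1 1416855_at was -3.23 and that of Ptch1 1428853_at was 0.69. Cdon passed there at -3.13 (limma adjusted p = 0.0325). Same-numbered arrays did not deviate together (r of -0.02 and 0.01 for replicates 3 and 4, and 0.03 or 0.07 for the shared array with replicate 1 or 2), so the numbers were not taken as pairs. A replicate block called 4 member probe sets with the shared array as replicate 1 and 5 as replicate 2, and 857 probe sets in all in the second case. Intensities near the filter level limit the dim probe sets of Ptch1, Gas1, Gli3 and Hhat.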
